A study of Mus musculus with 64 samples.

Results

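The 55 genes described here encode enzymes and signalling proteins of DNA repair. They were picked by name, from a list of repair genes, and found in the deposited expression table by their NCBI gene IDs, where they made up 55 of 36332 distinct IDs. All 55 had reads. The list holds 15 genes of base excision repair, 11 of nucleotide excision repair, 4 of mismatch repair, 13 of homologous recombination and crosslink repair, 5 of end joining, 6 of damage signalling, and Mgmt, whose product removes alkyl groups from guanine directly.

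Mice with body-wide excision of Myc (labelled MycKO, here KO) were set against wild-type mice (here WT), each at an age of 5 or 20 months. The title of the series ties near-complete Myc inactivation to premature ageing and fewer cancers. KO mice came from a cross of a B6.129 line with cre/ERT2 in Gt(ROSA)26Sor and a line with the floxed allele Myctm2Fwa, so that Cre expressed from the Gt(ROSA)26Sor locus excised Myc once tamoxifen was given. WT mice were C57/B6, so strain background and genotype cannot be told apart. Per the labels, both genotypes received 5 injections of tamoxifen, 1 a day, at 75 mg/kg, from weaning on and at a body weight of 15 g or more. At 5 months omental adipose tissue gave 6 libraries per genotype, liver likewise 6, and skeletal muscle 4 from KO and 6 from WT mice. At 20 months every tissue gave 5 per genotype, which makes 12 groups and 64 libraries in all. Libraries are named by their codes, in which K or W is the genotype and F, L or S stands for adipose tissue, liver or muscle. The number 18 stands in the codes of old mice although their labels give 20 months, which is used here. The labels used here do not say in words that the libraries of a group came from separate mice, so p-values measure the spread between these libraries.

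As background, each kind of DNA damage has its own repair route. In base excision repair a glycosylase removes a damaged base and an endonuclease, a polymerase and a ligase fill the gap. Nucleotide excision repair cuts out a stretch of strand around bulky lesions such as those made by ultraviolet light, and mismatch repair corrects copying errors. Double-strand breaks are rejoined directly by end joining, which works in resting cells and so matters in tissues like muscle and liver, or are copied from the sister chromatid by homologous recombination, which is tied to replication. The kinases encoded by Atm and Atr sense breaks and stalled forks and start the damage response. Myc, with its partner Max, binds the E-box CACGTG, and many of its targets serve growth and division.

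Because the KO mice were made by excising Myc, the promoters of the members that hold this E-box are shown first. RefSeq promoter windows of assembly GRCm38.p6, which is among the builds in the submitters' processing notes, ran from 250 bases before to 50 bases after each start and were found for 45 of the 55 members. Fancd2, Prkdc, Wrn, Ddb2, Exo1, Ercc3, Rad50, Nbn, Polb and Xpc had no entry. The letters CACGTG, which read the same on both strands, stood in 9 of these 45 windows (20.0%), against 8.09% of all 27025 genes with an entry. Lig1 had them only after its start. For the other 8, the copies before the start of the promoter entry are printed below, 5′ to 3′ on the strand of the gene. The E-box is in capitals, with up to 30 bases on each side.

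Apex1 (chr14:50924895-50924948, + strand): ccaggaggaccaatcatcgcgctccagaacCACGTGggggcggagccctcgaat
Fen1 (chr19:10203922-10203969, - strand): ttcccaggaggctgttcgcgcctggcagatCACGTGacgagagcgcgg
Lig3 (chr11:82781058-82781108, + strand): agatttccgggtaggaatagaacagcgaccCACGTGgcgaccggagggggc
Parp1 (chr1:180568812-180568877, + strand): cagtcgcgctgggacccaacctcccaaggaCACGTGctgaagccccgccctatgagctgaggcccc
Parp2 (chr14:50807707-50807772, + strand): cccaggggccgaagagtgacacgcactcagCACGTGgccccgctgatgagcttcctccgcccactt
Ercc6 (chr14:32513395-32513460, + strand): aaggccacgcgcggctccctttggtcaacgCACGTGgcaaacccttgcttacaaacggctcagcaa
Ercc8 (chr13:108158488-108158536, + strand): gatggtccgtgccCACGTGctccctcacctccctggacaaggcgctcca
Xrcc5 (chr1:72307193-72307258, + strand): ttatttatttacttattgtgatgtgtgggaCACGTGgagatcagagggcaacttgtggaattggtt

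The E-box of Fen1, Lig3 and Apex1 began 18, 21 and 24 bases before the start, and that of Parp1 49 bases before it. Those of Ercc6, Parp2, Xrcc5 and Ercc8 lay farther upstream, 96, 179, 198 and 237 bases before it. These starts are those of the promoter entries. The annotated genes span chr19:10199132-10204393 for Fen1 and chr14:32513291-32580990 for Ercc6, so the printed stretches of both lie inside the gene. Apex1, which encodes the endonuclease that cuts at sites without a base, had further copies at the start itself and 21 bases after it. A match of letters is a description and no measure of Myc binding.

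Values are the deposited signal, a read count scaled by 1 factor per library. Recovered reads on genes numbered 15.4 to 28.5 M (M, mega) per library, with a median of 19.6 M. Differences are given on the log2(signal + 1) scale, which understates changes of low genes, and a gene is called at a Benjamini-Hochberg adjusted p under 0.05 over all genes tested in a tissue with limma. Where groups of libraries are said not to overlap, the share of all genes that did the same is not given. Myc itself was called lower in KO than in WT libraries at 5 months in adipose tissue (adjusted p 0.0170) and in liver (0.00093), and in neither comparison in muscle nor at 20 months (adjusted p 0.547 to 1). Marker genes of each tissue were high in its libraries, with summed signals of 6769 to 25808 for 6 adipocyte markers in adipose tissue, 107714 to 215754 for 6 hepatocyte markers in liver, and 126596 to 181017 for 6 skeletal muscle markers in muscle. In 4 adipose libraries of 5-month mice (K5F4284, K5F5218, K5F5248 and W5F5299), 6 epididymal genes summed to 1068 to 7753, against at most 1.04 in the other 18. At 5 months 12 libraries had Xist and no transcripts of the Y chromosome, 2 in each group, while no 20-month library did, so the age groups differ in the sexes they hold.

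A filter on low values (signal over 1 in as many libraries as the tissue's smallest group has, or more) left 52 members in adipose tissue and 46 each in liver and muscle. The members below it mostly serve dividing cells. Neil3, a glycosylase, Exo1, the exonuclease of mismatch repair, and Chek1, the kinase downstream of Atr, passed in no tissue. Their reads ran from 2 to 98 per library in adipose tissue, from 0 to 8 in liver and from 0 to 22 in muscle. Palb2, Rad54l, Fanca, Fancd2 and Fanci, which act in recombination and crosslink repair, passed only in adipose tissue and had at most 22 reads per library in liver and 37 in muscle. Mutyh, a glycosylase that removes adenine opposite oxidised guanine, fell below the filter in liver (0 to 13 reads), and Brca1 in muscle (0 to 23 reads). Within a tissue, no difference of these genes was tested where they fell below the filter. Comparisons between tissues had their own filter over the 18 WT libraries at 5 months, which left 47 members, Brca1 and Mutyh among them.

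Per kilobase of the longest transcript, Ddb1 was the most abundant member in WT mice at 5 months in each tissue, with a mean signal per kilobase of 69.4 in adipose, 70.8 in liver and 75.9 in muscle libraries. It encodes a subunit of a ubiquitin ligase and of the ultraviolet damage sensor. Apex1 ranked second in adipose tissue (20.2) and liver (29.1). In muscle Polb, the gap-filling polymerase of base excision repair, was second at 46.8. At the other end, Exo1 was the lowest member in each tissue (0.066, 0.013 and 0.004 in adipose, liver and muscle libraries).

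None of the 6 comparisons of KO with WT gave a called repair gene, and of these comparisons 2 (adipose tissue and liver at 5 months) had Myc itself called lower. In limma, 0 of 52 members were called between KO and WT libraries in adipose tissue at 5 months, where 0.105% of all 14286 genes were called, and 0 of 52 at 20 months, where 0% of genes were. In liver 0 of 46 were called at 5 months (background 0.0696%) and 0 of 46 at 20 months (0.0232%). In muscle 0 of 46 were called at 5 months (background 0%) and 0 of 46 at 20 months (0.0302%). With so few genes called anywhere, these counts are near the background. At an unadjusted p under 0.05 there were 5 and 0 members in adipose tissue, 3 and 1 in liver and 0 and 6 in muscle, at 5 and 20 months. Over all genes, 1692 and 321 of 14286 had such a p in adipose tissue. In liver it was 897 and 750 of 12924, and in muscle 543 and 1821 of 13237. The member counts lie near or below these shares. edgeR on recovered reads called 0 in each of these comparisons too. The KO effect did not differ between the ages by a called amount in any member, with 0 of 52, 0 of 46 and 0 of 46 called against a background of 0% in each tissue, and 1, 1 and 0 members at an unadjusted p under 0.05. Over all genes 407, 507 and 438 had such a p for this difference in adipose tissue, liver and muscle. The median member differed by -0.09 and -0.06 in adipose tissue at 5 and 20 months, by 0.00 and 0.00 in liver, and by -0.07 and -0.06 in muscle, beside -0.04, 0.01, 0.01, 0.01, 0.01 and -0.03 for all genes in that order.

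**Figure D1:**
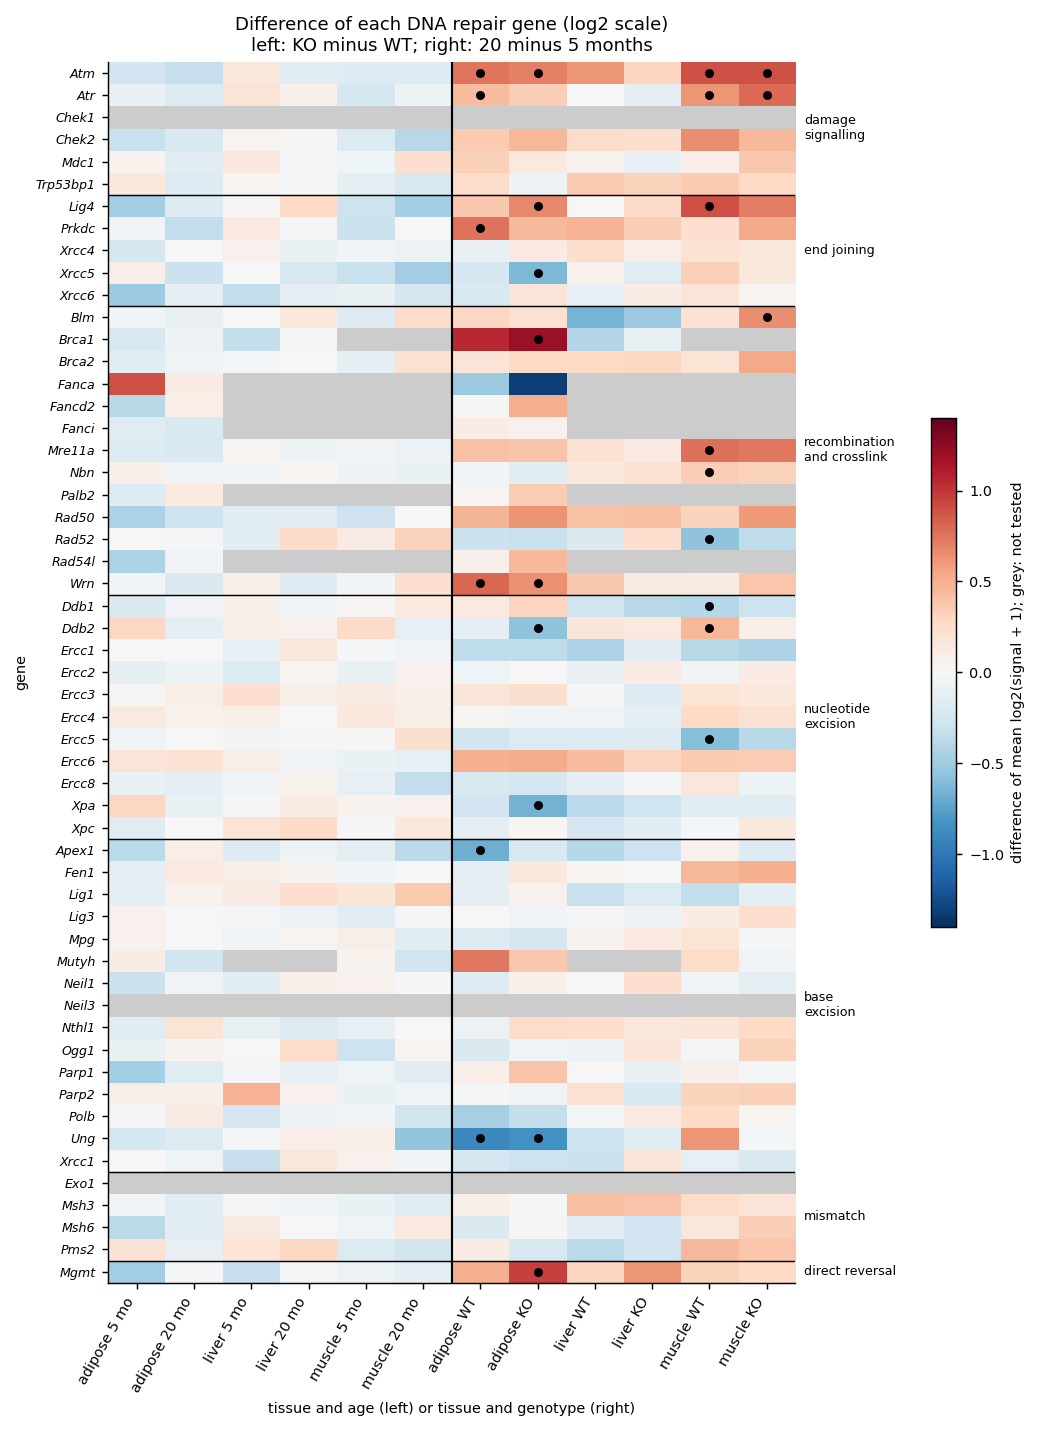
Difference of mean log2(signal + 1) for each of the 55 members (rows, by repair route) in 12 comparisons (columns), KO minus WT on the left and 20 minus 5 months on the right. Red is higher and blue lower in KO or at 20 months, a black dot marks a call at an adjusted p under 0.05, and grey was not tested. All dots lie on the right side, with 6 and 9 in adipose tissue (WT, KO), 9 and 3 in muscle and none in liver.

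The end-joining genes held the member nearest to a call. Xrcc6 encodes Ku70, which with Ku80 (encoded by Xrcc5) caps broken ends. In adipose tissue at 5 months its signal was 5.02 to 10.1 (median 8.43) in 6 KO libraries and 9.10 to 15.6 (median 11.5) in 6 WT libraries. Most KO libraries were lower, but the groups overlapped. The log2 difference was -0.51 (SE 0.158, limma adjusted p 0.236). In liver at 5 months Xrcc6 ran from 13.8 to 22.3 in KO and from 16.8 to 23.3 in WT libraries, a difference of -0.35 (limma adjusted p 0.418). In muscle at 20 months it was 22.9, 23.4, 24.6, 27.4 and 27.8 in KO and 27.1, 28.7, 30.05, 30.7 and 32.4 in WT libraries (-0.23, limma adjusted p 0.317). Xrcc6 was 1 of 5 members, with Parp1, Mgmt, Rad50 and Msh3, whose difference was below 0 in all 6 comparisons of KO with WT, out of 45 members tested in all 6. Ercc3, a helicase of the transcription factor TFIIH, was the 1 member above 0 in all 6. How many of all genes kept 1 sign in all 6 was not counted.

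Prkdc, which encodes the catalytic subunit of the DNA-dependent protein kinase that Ku recruits, was lower in each 20-month KO adipose library than in each WT one. The 5 KO values were 13.1, 14.3, 15.4, 16.7 and 16.7 and the 5 WT values 17.7, 19.3, 19.3, 20.1 and 21.95. The difference of -0.35 (SE 0.207) was not called (limma adjusted p 1). In muscle at 5 months it was -0.30 (limma adjusted p 1), with overlapping groups.

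In base excision repair, Parp1 encodes the polymerase that marks strand breaks with ADP-ribose, and in 5-month adipose tissue it had 15.2 to 35.0 (median 26.1) in KO and 26.3 to 44.3 (median 33.2) in WT libraries (-0.48, SE 0.180, limma adjusted p 0.337). Its relative Parp2 differed the other way in 5-month liver, with 6.50 to 14.1 in KO and 4.43 to 8.81 in WT libraries (0.49, SE 0.175, limma adjusted p 0.5257). Apex1 in 20-month muscle was 15.2, 18.2, 18.3, 19.6 and 21.9 in KO and 18.8, 20.1, 23.9, 26.8 and 34.2 in WT libraries (-0.37, SE 0.149, limma adjusted p 0.317). Each of these 3 has an E-box upstream, and each pair of groups overlapped. Xrcc1, the scaffold of single-strand break repair, differed by -0.32 in 5-month liver (limma adjusted p 0.687).

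Among the excision and mismatch genes, Xpc, which finds helix distortions, was higher in every 20-month KO liver library (31.5, 31.7, 32.9, 34.45 and 35.2) than in every WT one (26.2, 26.5, 26.6, 27.8 and 29.3), by 0.27 (SE 0.119, limma adjusted p 0.815). Ercc8, needed for repair of transcribed strands, was 2.92, 2.92, 3.64, 3.97 and 4.15 in KO and 3.79, 4.53, 4.72, 5.21 and 5.30 in WT muscle at 20 months (-0.34, limma adjusted p 0.305). Msh6, a subunit of the mismatch sensor, ran from 7.96 to 14.1 in KO and from 13.6 to 17.4 in WT adipose tissue at 5 months (-0.37, limma adjusted p 0.295). Values for Ddb2 in 5-month muscle (0.27, limma adjusted p 1), for Pms2 (0.29, limma adjusted p 0.876) and Lig4 (0.28, limma adjusted p 0.878) in 20-month liver, and for Atm (-0.32) and Xrcc5 (-0.30) in 20-month adipose tissue (limma adjusted p 1 for both) did not pass the correction either. In 20-month muscle Xpc was higher in every KO than in every WT library, by 0.15, and was not called (limma adjusted p 0.438).

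None of the 9 members with the E-box was called between genotypes. Below 0 in KO were 5 and 3 of 9 in adipose tissue, 4 and 5 in liver and 8 and 8 in muscle, at 5 and 20 months. Of the tested members with a window that lacks it, 25 and 28 of 34 were below 0 in adipose tissue, 15 and 14 of 29 in liver and 19 and 18 of 29 in muscle, and none of these was called. Over all genes 43.6% and 51.8% were above 0 in adipose tissue, 52.4% and 51.9% in liver and 52.9% and 45.6% in muscle.

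Ogg1 and Fancd2 lie close to the locus that carries the Cre transgene. Gt(ROSA)26Sor is at chr6:113067428-113077244 in GRCm38.p6. Ogg1, the glycosylase for oxidised guanine, lies 249.7 kb away at chr6:113326972-113334877, and Fancd2, a hub of crosslink repair, 454.4 kb away at chr6:113531640-113597020. In adipose tissue Ogg1 was 6.997 to 9.89 in KO and 7.08 to 10.8 in WT libraries at 5 months (-0.09) and 6.69 to 9.38 against 6.98 to 7.68 at 20 months (0.05). In liver the differences were -0.01 and 0.26 and in muscle -0.29 and 0.04, with limma adjusted p from 0.808 to 1 over the 6. Rad52 and Xpc lie on the same chromosome, 6824.5 and 21551.5 kb from the locus, and the part of this position in the Xpc values above was not tested. Fancd2, tested in adipose tissue alone, had 0.26 to 1.53 in KO and 0.619 to 3.27 in WT libraries at 5 months (-0.39, limma adjusted p 0.470) and 0.947 to 2.07 against 0.971 to 1.48 at 20 months (0.10, limma adjusted p 1). At these levels 5-month groups overlapped in both genes.

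Between the ages, 18 members were called in at least 1 tissue and genotype. The share of all genes called in at least 1 of these comparisons was not counted. In single age comparisons it ran from 2.99% to 18.6%. In WT adipose tissue Atm, Atr, Prkdc and Wrn were higher at 20 than at 5 months and Ung and Apex1 were lower, so 6 of 52 members were called (11.5%), near the background of 10.8% of all genes. In KO adipose tissue 9 of 52 were called, Wrn, Lig4, Atm, Mgmt and Brca1 higher and Ung, Xpa, Xrcc5 and Ddb2 lower, beside 14.2% of all genes. Atm, Wrn and Ung were called in both genotypes. Both age comparisons use their own libraries, and no member's age effect differed between the genotypes by a called amount. Of 82 other repair genes tested in adipose tissue, taken from a longer list, 1 was called higher and 2 lower in each genotype.

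Atm, the kinase that responds to double-strand breaks, had a signal of 10.7 to 14.1 (median 11.62) in 6 WT adipose libraries at 5 months and 18.6, 20.3, 21.2, 21.8 and 23.4 at 20 months. The ages did not overlap, and the log2 difference was 0.75 (SE 0.164, limma adjusted p 0.00725). In KO libraries it ran from 5.93 to 14.0 (median 10.6) at 5 months and was 12.7, 14.5, 18.7, 18.9 and 19.6 at 20 months, with overlapping ages (0.71, limma adjusted p 0.00928). Its relative Atr, which responds to single-stranded DNA, was 10.6 to 13.6 at 5 and 15.3 to 17.8 at 20 months in WT libraries, again without overlap (0.44, SE 0.133, limma adjusted p 0.0393). In KO libraries Atr was 6.75 to 13.3 and 13.6 to 17.0, also without overlap, and was not called (0.35, limma adjusted p 0.0819).

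Prkdc rose from 7.55 to 16.5 (median 11.62) at 5 months to 17.7, 19.3, 19.3, 20.1 and 21.95 at 20 months in WT adipose libraries, with no overlap (0.76, SE 0.199, limma adjusted p 0.0201). Wrn, a RecQ helicase mutated in the premature ageing disorder Werner syndrome, was 9.35 to 18.6 (median 12.9) at 5 and 20.3 to 25.7 at 20 months in WT libraries (0.81, SE 0.167, limma adjusted p 0.00526). In KO libraries Wrn was 9.78 to 18.7 at 5 and 17.3, 18.4, 22.1, 22.1 and 23.6 at 20 months (0.64, limma adjusted p 0.0174). Young and old KO libraries overlapped in this gene, while the WT ages stood apart.

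Ung encodes the glycosylase that removes uracil from DNA. Its WT adipose values were 2.71 to 8.20 (median 5.27) at 5 months and 1.92, 2.04, 2.12, 2.51 and 2.57 at 20 months (-0.90, SE 0.236, limma adjusted p 0.0203). In KO libraries they were 1.88 to 6.51 and 1.25 to 2.84 (-0.85, limma adjusted p 0.0239). Apex1 was 13.8 to 31.2 at 5 and 13.3 to 16.2 at 20 months in WT libraries, and only W5F5299, 1 of the libraries with epididymal transcripts, fell into the range of the old ones (-0.69, SE 0.211, limma adjusted p 0.0408).

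In KO adipose tissue Mgmt was 2.67, 2.86, 3.21, 4.18, 4.62 and 12.2 at 5 months and 6.90 to 13.3 at 20 months, so that K5F5118 alone lay among the old libraries (0.96, SE 0.316, limma adjusted p 0.0458). Brca1, central to homologous recombination, was 0.173 to 1.37 at 5 months and 0.751, 2.08, 3.46, 4.06 and 4.87 at 20 months (1.21, SE 0.399, limma adjusted p 0.0463). In WT libraries Brca1 differed by 1.05 (limma adjusted p 0.0869), and W5F5006 reached 5.73 where the other 5 young libraries had 0.159 to 1.01. W5F5006 was also the young WT adipose library with the highest sum of 18 proliferation genes, 314 against a group median of 104. Lig4, the ligase of end joining, was 1.73 to 5.38 (median 2.58) at 5 and 3.33 to 5.73 at 20 months (0.67, limma adjusted p 0.0398). These 3 calls depend on the fit. With edgeR the adjusted p was 0.0591 for Brca1, 0.109 for Mgmt and 0.0786 for Lig4, all 3 were also lost with TMM factors and with no filter, and they were called in 6, 8 and 13 of 22 fits without 1 library. Xpa, which verifies lesions in nucleotide excision repair, was 11.1 to 23.4 at 5 and 8.41 to 13.2 at 20 months (-0.66, limma adjusted p 0.0393). Xrcc5 (9.02 to 12.8 at 5, 5.19 to 8.52 at 20 months, -0.63) and Ddb2, the damage-binding partner of Ddb1 (6.15 to 9.72 and 4.24 to 5.36, -0.56), separated the ages without overlap (limma adjusted p 0.0174 and 0.0158).

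Leaving out K18F26, K18F29, K18F30, K5F4284 or K5F4285 left 1 to 5 of the 9 KO calls, and leaving out W18F25, W5F5041 or W5F5042 left 3 of the 6 WT calls. The number of all genes called fell too, to between 653 and 1825 in KO (2033 with all libraries). In WT it fell to between 741 and 789 (1539 with all libraries). Without the libraries with Xist the WT calls were 3 (Atm, Atr and Wrn), and Ung and Prkdc had limma adjusted p of 0.0597 and 0.114. Other values moved with age in WT adipose tissue. The sum of 6 hepatocyte markers was 477 to 4882 at 5 and 155 to 548 at 20 months, that of 6 T cell markers 4.49 to 12.35 and 13.85 to 50.01, and that of 6 B and plasma cell markers 26.9 to 114 and 86.2 to 373. Their part in the age differences was not tested. In bulk tissue a lower signal cannot be told apart from fewer cells of a type or less RNA per cell.

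**Figure D2:**
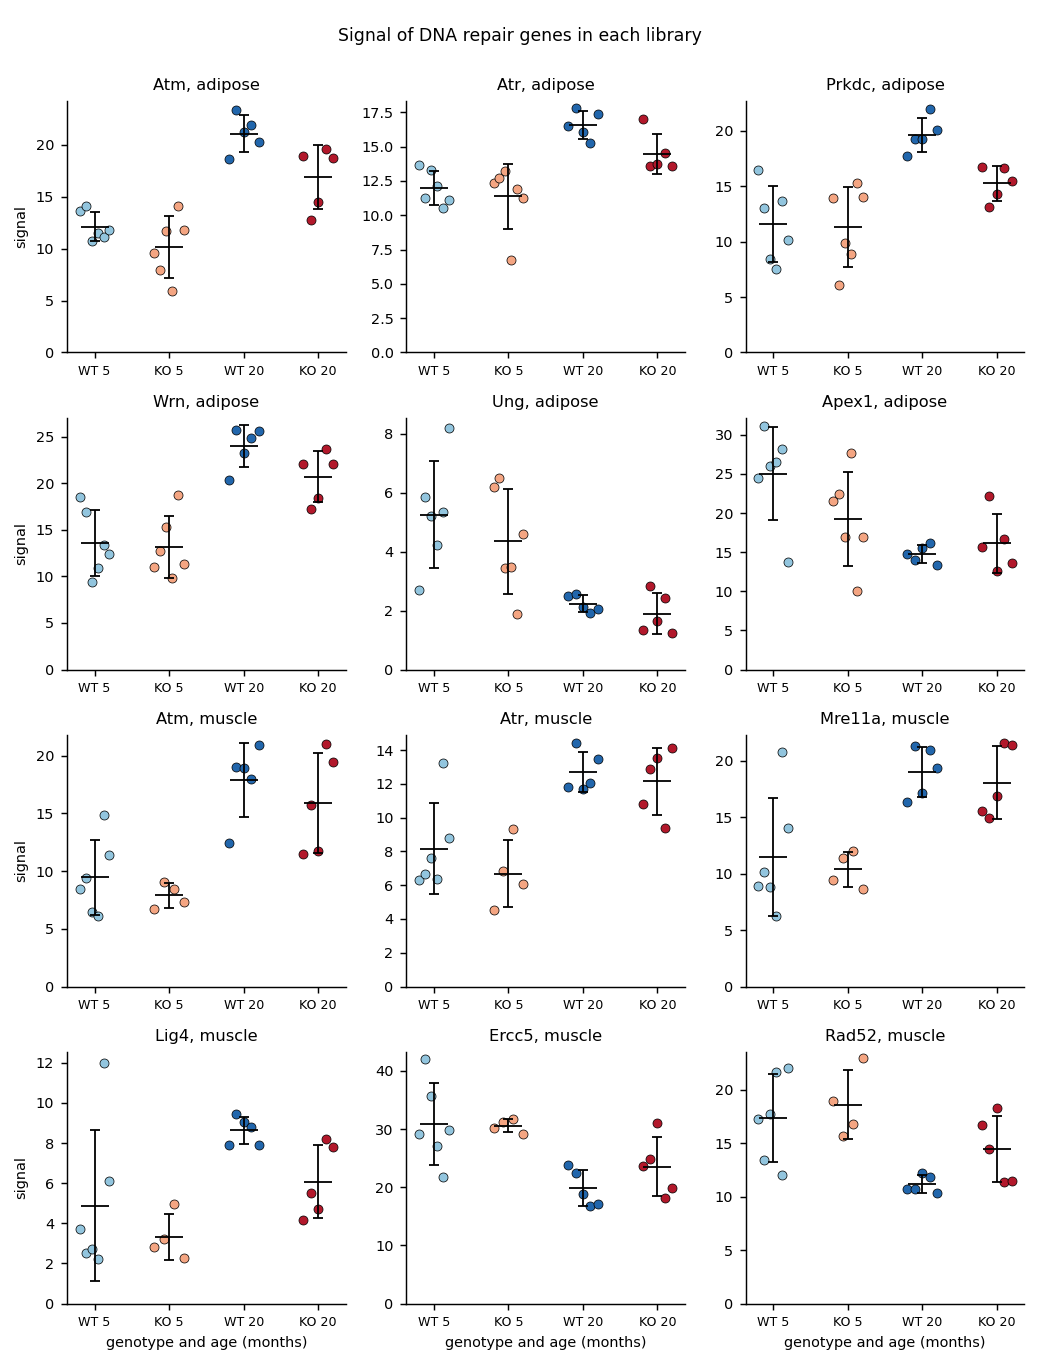
Signal (y axis, linear from 0) of 12 gene and tissue pairs in each library, by genotype and age in months. Each point is 1 library, and bars give the mean and SD. In adipose tissue the 5 old WT libraries lie above all 6 young ones for Atm, Atr, Prkdc and Wrn, while in muscle 1 young WT library, W5S5277, reaches the old ones for Atm, Atr, Mre11a and Lig4.

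Except for Mgmt (2894 bases), the members called higher with age in adipose tissue have long transcripts. The longest annotated transcript (GENCODE M21) has 12647 bases for Prkdc, 9819 for Atm, 8102 for Atr, 6572 for Brca1, 6262 for Wrn and 5028 for Lig4. Those called lower have 1239 for Apex1, 1241 for Xpa, 2136 for Ung, 2228 for Ddb2 and 2555 for Xrcc5. The whole set of genes showed a gradient too. In WT adipose tissue the median age difference of all genes was -0.37, -0.11, 0.08, 0.27 and 0.44 from the shortest to the longest of 5 length classes, divided at 1500, 3000, 5000 and 7500 bases, and 24.9% of genes in the last class were called higher. The 6 tested members over 7500 bases had a median of 0.47. In KO adipose tissue the medians of all genes ran from -0.19 to 0.34 over the same classes.

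When the trend with length within each library was removed, an alternative chosen after seeing the data, the WT difference of Atr was 0.04 (limma adjusted p 0.875), that of Prkdc 0.22 (0.501) and that of Atm 0.29 (0.0902), none of them called. Wrn (0.50, limma adjusted p 0.0240), Ung (-0.81, 0.0356) and Apex1 (-0.40, 0.0498) were called. In KO tissue Atm (0.34, limma adjusted p 0.0379), Ung, Xpa, Xrcc5 and Ddb2 were called in that fit, and Brca1, Lig4, Mgmt and Wrn were not. The slope of signal on length, in log2 units per doubling of length, was 0.10 to 0.16 in the 5 old WT adipose libraries and -0.29 to 0.13 in the 6 young ones. In KO adipose tissue it was -0.17 to 0.17 in the 5 old libraries, of which K18F27 alone was below 0, and -0.52 to 0.22 in the 6 young ones. What sets this gradient was not tested.

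**Figure D3:**
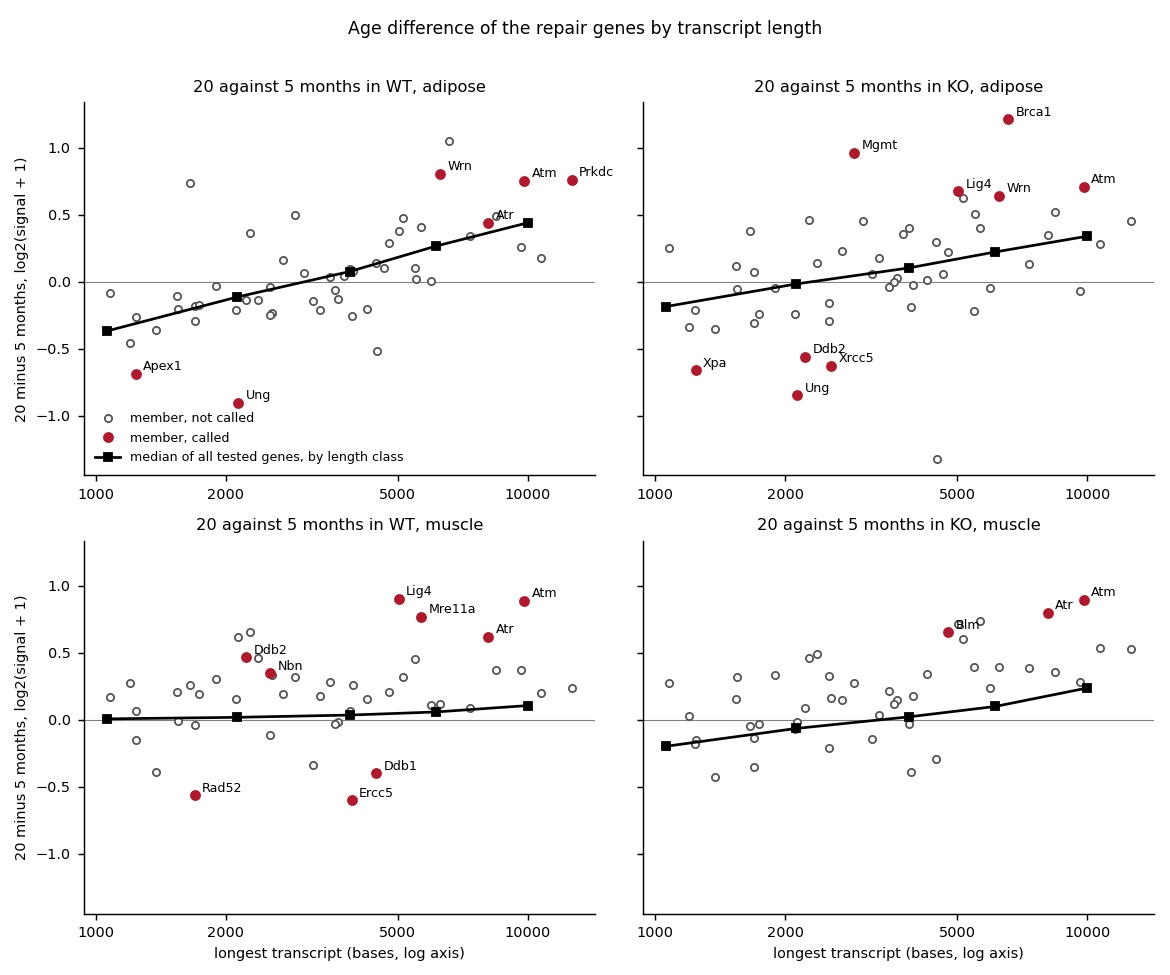
Age difference (20 minus 5 months, log2(signal + 1)) of each tested member against the length of its longest transcript (log axis), in adipose tissue and muscle of WT and KO mice. Red points are called members, open points are not called, and black squares are medians of all tested genes by length class, which rise from -0.37 to 0.44 in WT adipose tissue and from 0.01 to 0.11 in WT muscle.

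In skeletal muscle Atm and Atr were higher at 20 months in both genotypes. In WT muscle 9 of 46 members were called (19.6%, background 18.6%), with Nbn, Ddb2, Atr, Mre11a, Atm and Lig4 higher and Ercc5, Rad52 and Ddb1 lower. In KO muscle 3 of 46 were called (6.52%, background 5.57%), Atm, Atr and Blm, all higher. Both shares lie near the background. The median member differed by 0.20 in WT and by 0.20 in KO muscle, beside 0.03 and -0.02 for all genes. Of 77 other repair genes 18 were called higher and 2 lower in WT muscle, and 3 higher and 0 lower in KO muscle.

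Atm was 6.11, 6.49, 8.50, 9.37, 11.4 and 14.8 in WT muscle at 5 months and 12.4 to 20.96 (median 18.9) at 20 months (0.89, limma adjusted p 0.00780). In KO muscle it was 6.68, 7.31, 8.50 and 9.10 at 5 and 11.5, 11.8, 15.7, 19.4 and 21.1 at 20 months (0.89, SE 0.222, limma adjusted p 0.0253). The KO ages did not overlap, and the WT ages overlapped through W5S5277 alone. Atr was 6.29 to 13.3 at 5 and 11.72 to 14.4 at 20 months in WT (0.62, limma adjusted p 0.0205), and 4.55, 6.04, 6.85 and 9.32 against 9.38 to 14.1 in KO libraries (0.80, limma adjusted p 0.0229). With the trend in length removed, WT Atm was 0.77 (limma adjusted p 0.00814) and WT Atr 0.52 (0.0177), and in KO muscle Atr was 0.60 (0.0374) and Atm 0.64 (0.0661).

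Mre11a and Nbn encode parts of the complex that, with Rad50, holds broken ends and activates ATM. In WT muscle Mre11a was 6.24 to 20.8 (median 9.54) at 5 and 16.4 to 21.3 at 20 months (0.77, SE 0.203, limma adjusted p 0.0159). Nbn was 20.2 to 29.3 and 26.8 to 32.3 (0.35, limma adjusted p 0.0278). In KO muscle both had ages that did not overlap but were not called (0.74 for Mre11a, limma adjusted p 0.0568, and 0.32 for Nbn, limma adjusted p 0.0969). Lig4 in WT muscle was 2.20, 2.53, 2.71, 3.73, 6.11 and 12.01 at 5 and 7.91 to 9.45 at 20 months (0.90, SE 0.282, limma adjusted p 0.0326). W5S5277 exceeded all old libraries in this gene.

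Blm, a RecQ helicase that dissolves recombination intermediates, was called in KO muscle, from 0.951, 1.06, 1.42 and 2.08 at 5 to 2.20, 2.51, 2.60, 2.87 and 3.29 at 20 months (0.65, SE 0.175, limma adjusted p 0.0354). K18S48, the highest of these, also had the largest sum of 18 proliferation genes in muscle, 149 against a group median of 51.6. Among genes that fell in WT muscle, Ercc5, the endonuclease that cuts 3′ of a bulky lesion, was 21.8 to 42.1 at 5 and 16.9 to 23.7 at 20 months (-0.60, SE 0.150, limma adjusted p 0.0123). Rad52, which anneals single strands, was 12.01 to 21.97 at 5 and 10.4 to 12.2 at 20 months (-0.56, SE 0.155, limma adjusted p 0.0188). Ddb1 was 277 to 429 at 5 and 212 to 319 at 20 months (-0.40, limma adjusted p 0.0364), while Ddb2 went the other way, from 1.78 to 3.87 to 3.45 to 5.45 (0.47, limma adjusted p 0.0314).

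Among the young WT muscle libraries W5S5277 was the highest in Atm, Atr, Mre11a, Nbn and Lig4 and the lowest in Ercc5, Rad52 and Ddb1, which is 8 of the 9 called genes. Without it 18 members were called in WT muscle, 15 higher and 3 lower, with the 9 main calls among them, and 6 in KO muscle. Over all genes 3838 were called in WT and 1302 in KO muscle without it, against 2463 and 737 with all libraries. The slope of signal on length in W5S5277 was 0.12, the highest of the young WT muscle libraries, and its part was not tested. Without W18S42 or W18S66 there were 4 and 5 WT calls (1183 and 1280 over all genes), and without K18S64, K5S4284 or K5S5118 there were 0 in KO muscle. Leaving out K18S63 or K5S5116 left 1 KO call, and leaving out W5S5042 gave 5. Over all genes, KO muscle had 129 to 351 calls without any of these KO libraries and 926 without W5S5042, against 737 with all libraries. Without the libraries with Xist, which have the lowest Atm (W5S5041 and W5S5042), 0 WT and 1 KO members were called, at differences of 0.66 for WT Atm (limma adjusted p 0.0635) and 0.98 for KO Atr (limma adjusted p 0.0430). W5S5299 also held epididymal transcripts (summed signal 144), and W18S42 had 2729 for 6 hepatocyte markers, where the median of its group was 4.41. Their part in the calls was not tested.

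In liver no member was called with age. In limma 0 of 46 passed in WT (background 7.19%) and 0 of 46 in KO liver (background 2.99%), with 9 and 3 members at an unadjusted p under 0.05, and edgeR on recovered reads called 0 in both. Over all 12924 genes, 3301 and 2484 had such a limma p in WT and KO liver. Of 78 other repair genes 1 was called higher and 1 lower in WT and 1 higher in KO liver. Prkdc was 5.38 to 9.62 (median 7.48) at 5 and 9.37, 9.65, 9.69, 11.1 and 13.5 at 20 months in WT liver (0.49, limma adjusted p 0.0646) and 6.32 to 10.8 against 9.20 to 13.9 in KO liver (0.34, limma adjusted p 0.251). Apex1 was 24.96 to 48.3 at 5 and 24.3 to 28.6 at 20 months in WT libraries (-0.40, limma adjusted p 0.0952). Blm was 1.18 to 3.54 and 0.39 to 2.44 (-0.65, limma adjusted p 0.119), and Mgmt in KO liver differed by 0.61 (limma adjusted p 0.186). Ddb1 in KO liver differed by -0.39 with ages that did not overlap (limma adjusted p 0.0606, and 0.0453 with the trend in length removed). WT liver Atm spread from 4.32 and 5.62 in the 2 young libraries with Xist (W5L5042 and W5L5041) to 18.6 and 19.9 in W5L5277 and W5L5299, wider than the old libraries (14.0 to 16.7). These libraries also differed in the slope of signal on length, at -0.26, -0.05, 0.04 and 0.14 in that order. The part of sex or slope in this spread was not tested. Leaving out W5L5277 or W5L5299 gave 3 calls in WT liver, W5L5005 gave 1, and in KO liver K5L5218 gave 2 and W5L5005 or W5L5042 gave 1. Over all genes, leaving out W5L5277, W5L5299 or W5L5005 gave 1620, 1326 and 800 calls in WT liver, against 929 with all libraries. In KO liver, leaving out K5L5218, W5L5005 or W5L5042 gave 745, 446 and 478 calls over all genes, against 386.

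Across the 6 age comparisons, 10 of the 45 members tested in all of them were above 0 in each (Atm, Prkdc, Lig4, Wrn, Mre11a, Rad50, Brca2, Ercc6, Chek2 and Mgmt) and 3 below 0 in each (Ercc1, Ercc5 and Xpa, all of nucleotide excision repair). How many of all genes kept 1 sign in this way was not counted. Atm, Prkdc, Brca2 and Ercc6 have transcripts over 7500 bases, Lig4, Wrn, Mre11a and Rad50 5028 to 6262, and Chek2 and Mgmt 2276 and 2894. Ercc1 (1375) and Xpa (1241) fall in the shortest length class, and Ercc5 has 3907 bases. Atm was called in 4 of the 6 age comparisons and Atr in 3. The 5 tested members of damage signalling had medians of 0.36 and 0.35 in WT and KO adipose tissue, 0.25 and 0.23 in liver and 0.62 and 0.46 in muscle. Over all genes the medians were 0.01 and 0.06, -0.01 and -0.02, and 0.03 and -0.02. Over all genes longer than 7500 bases they were 0.44 and 0.34 in adipose tissue, 0.18 and 0.06 in liver and 0.11 and 0.24 in muscle. Of these 5 members Atm, Trp53bp1 and Atr exceed that length, and Mdc1 (7335 bases) comes close to it. The median of nucleotide excision repair ran from -0.15 in KO liver to 0.09 in KO muscle. None of the age differences picked by the planned naming rule, given below, changed its direction under the alternatives tried.

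Fanca, a core gene of crosslink repair, was chosen for description after its values were seen. In 5-month KO adipose libraries its signal was 0.519, 0.89, 1.16, 9.56, 26.8 and 49.9, against 0.851 to 8.08 in WT ones. The difference of 0.90 (SE 0.666) was the largest of any member between genotypes and was not called (limma adjusted p 0.617). At 20 months KO adipose libraries had 1.08 to 2.30, and the age difference of -1.32 (SE 0.698) was not called in limma (adjusted p 0.196), but it was with edgeR and without the libraries that have Xist. The 4 libraries with epididymal transcripts were the 4 highest of all 22 adipose libraries in Fanca, with 26.8 in K5F4284 (epididymal sum 7753), 49.9 in K5F5248 (5020), 9.56 in K5F5218 (1083) and 8.08 in W5F5299 (1068). The other 18 had 0.519 to 4.71. Lig3, Ercc6 and Trp53bp1 were the 3 other members in which those 4 libraries lay outside the range of the other young adipose libraries, at 17.95 to 20.2 against 7.40 to 16.6 for Lig3, 13.6 to 21.2 against 5.76 to 12.2 for Ercc6, and 23.9 to 36.2 against 14.9 to 21.8 for Trp53bp1. Without these 4 libraries 8 members were called with age in WT adipose tissue and 11 in KO. The share of all genes called in that fit is not given here.

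**Figure D4:**
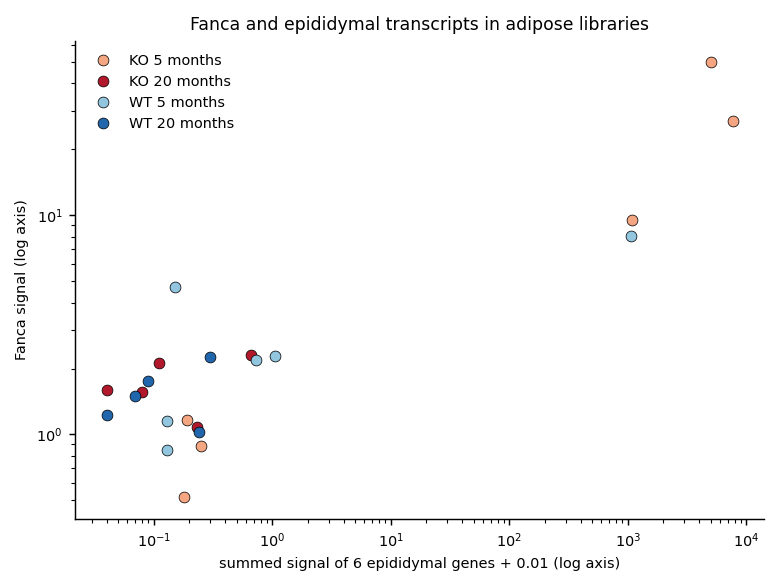
Fanca signal against the summed signal of 6 epididymal genes plus 0.01 (both log axes) in the 22 adipose libraries, coloured by genotype and age. The 4 libraries with epididymal sums of 1068 to 7753 have the 4 highest Fanca values, 8.08 to 49.9.

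More members were called between tissues than between genotypes or ages. In WT mice at 5 months 25 of 47 tested members were called between liver and muscle, 14 higher and 11 lower in liver, beside 73.1% of all genes. Between adipose tissue and liver 28 of 47 were called (13 higher and 15 lower in adipose tissue, background 69.7%), and between adipose tissue and muscle 28 of 47 (18 higher and 10 lower, background 68.9%). The shares of members called, from 53.2% to 59.6%, were below the background in each case. Directions against adipose tissue depend on the scaling. The deposited factors put the median of all genes at 0.03 and 0.15 in the adipose comparisons and at -0.01 between liver and muscle, while reads scaled to equal library totals, without a factor, put it at 0.999, 0.88 and -0.21. On that scale 39 members were called higher and 0 lower in adipose tissue than in liver, and 38 and 2 against muscle. The share of all genes called without the factors is not given here, so these counts are not read as a result about the members. Of the called members 13, 20 and 21 were called in the same direction on both scales in adipose tissue against liver, adipose tissue against muscle and liver against muscle, while 11, 3 and 0 had the opposite sign without the factors. For adipose tissue against liver, 7 of those 11 (Parp1, Nbn, Brca2, Ercc2, Polb, Apex1 and Ercc3) were called lower with the factors and higher without them. Parp1, for example, was -0.39 (limma adjusted p 0.00722) with and 0.72 (7e-05) without them. Against muscle the same held for 1 gene, Ercc5.

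Polb set muscle apart, at 46.3 to 71.3 (median 55.4) in muscle, 13.2 to 21.9 in liver and 9.14 to 22.3 in adipose tissue. The liver to muscle difference was -1.59 (SE 0.192, limma adjusted p 3.3e-07) and the adipose to muscle one -2.03 (limma adjusted p 1.6e-08). Rad52 followed the same order of muscle first, with 12.01 to 21.97 in muscle, 3.26 to 5.98 in liver and 4.23 to 8.78 in adipose tissue (liver to muscle -1.72, limma adjusted p 5.5e-08; adipose to muscle -1.36, 1.8e-06). Liver and adipose tissue overlapped in both genes.

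Liver was low in Ercc1, the partner of the nuclease XPF, at 3.18 to 10.4 against 16.2 to 36.2 in muscle (-1.91, SE 0.262, limma adjusted p 1.8e-06) and 9.975 to 23.8 in adipose tissue (adipose minus liver 1.73, 7.6e-06). It was high in Xpa, with 19.2 to 35.5 against 6.49 to 12.2 in muscle (1.59, limma adjusted p 6.7e-07). Mgmt was also higher in liver, at 9.46 to 27.6 against 2.40 to 4.76 in muscle (1.82, limma adjusted p 1.4e-05). Brca1 was 2.86 to 4.84 in liver and 0.069 to 0.414 in muscle (1.91, limma adjusted p 1.5e-05). Every liver library of Brca1 was over the filter's signal of 1 and every muscle library below it. Brca1 thus passed the filter mainly through liver, where it was high, and its p adds no support. In adipose tissue Brca1 (0.159 to 5.73, adipose minus liver -1.25) lost its call without the factors, with edgeR and without the Xist libraries.

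Adipose tissue was high in Rad50 (13.0 to 45.9, against 5.63 to 14.3 in liver and 3.86 to 13.2 in muscle), the arm of the end-holding complex, with differences of 1.54 (limma adjusted p 0.00034) and 1.82 (6.1e-05). Wrn exceeded muscle by 1.45 and Mdc1, a scaffold at breaks, by 1.26 (limma adjusted p 1.6e-05 and 0.00016). Chek2, the kinase below ATM, and Mutyh exceeded liver by 1.43 and 1.396 (limma adjusted p 7.3e-05 and 0.00014). Their mean signals in liver, 0.80 and 0.18, were under the filter's signal of 1, so both differences are set against low values. Mutyh passed the filter of this comparison only through the other tissues, and its p adds no support. These 5 genes (Rad50, Wrn, Mdc1, Chek2 and Mutyh) were called in the same direction without the factors. Xrcc5 was lower in adipose tissue than in liver (-1.25) and muscle (-1.22), and neither was called without the factors. Xrcc5 in liver and muscle differed by 0.04 (SE 0.185, limma adjusted p 0.861).

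**Figure D5:**
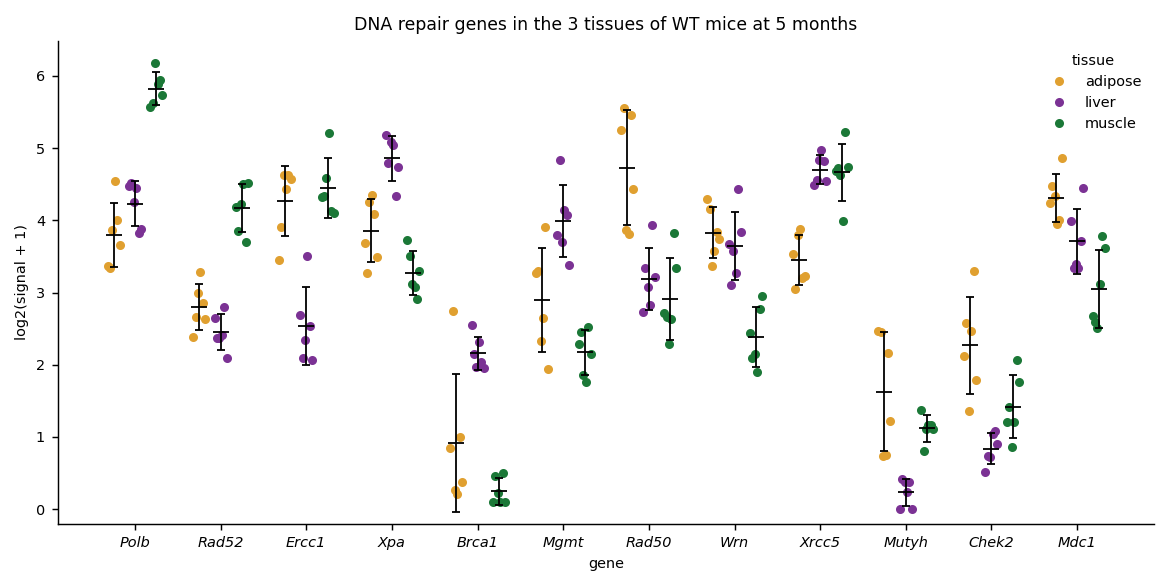
Level of 12 members, log2(signal + 1), in the 6 WT libraries of each tissue at 5 months. Points are libraries, bars the mean and SD. Polb and Rad52 are highest in muscle, Ercc1 is lowest in liver, and Xpa, Brca1 and Mgmt are higher in liver than in muscle. All muscle libraries of Brca1 lie below the filter's signal of 1.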

How the data were processed

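Bulk RNA was sequenced from 64 libraries in 12 groups of tissue, genotype and age. Per the labels' protocols, RNA was extracted with RNeasy kits and poly-A selected, and libraries were made with a strand-specific NEBNext kit. The submitters' processing notes name GRCm38.p6 and mm10, and the aligner and counter are not given in the sources used here. The values deposited by the authors are a signal per gene (CPM in the file header) whose columns sum to 0.529 to 1.64 M. Dividing by each library's step gave whole reads for 100% of values (tolerance 0.02), so the signal is reads times 1 factor per library.

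The members and lists were chosen with earlier results of these data known. Differences were tested with limma 3.58.1 (R 4.3.3, trend) on log2(signal + 1) within each tissue, after a filter of signal over 1, with Benjamini-Hochberg adjustment over all genes tested. Recovered reads were tested with edgeR 4.0.16 (quasi-likelihood). Both were tested on simulated data. Every called member was to be named with values, or the 6 largest differences where more were called, or the 3 smallest p where none was, with Ogg1, Fancd2 and members below the filter. Values of other called members, of Fanca and of Xpc in muscle were added after they were seen. Alternatives were a pseudocount of 0.1, no filter, edgeR, TMM factors, Xist as a covariate, leaving out libraries and, for tissues, a replicate block. Removing the length trend, leaving out the libraries with epididymal transcripts and scaling reads to equal library totals were chosen after seeing the data. No column of the table was left unassigned (0). IDs without a symbol took 0.155% of reads.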

Additional observations from a re-analysis of the deposited data

Results flagged for a closer look

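In 3 of the 42 groups of 4 to 10 libraries examined for named members, 1 library lay far from the others of its group, where chance gives about 1 in 20. Mgmt had a signal of 12.2 in the KO adipose library K5F5118 at 5 months, and the other 5 libraries of the group had 2.67 to 4.62. Lig4 was 3.33 in the KO adipose library K18F28 at 20 months, below the 5.42 to 5.73 of the other 4. Atr was 13.3 in the WT muscle library W5S5277 at 5 months, above the 6.29 to 8.80 of the other 5.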

How the results depend on the processing

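Between genotypes, and for the difference of the KO effect between the ages, 0 members were called under all alternatives, the fits without 1 library included (0 to 0). Age calls in WT adipose tissue numbered 3 with the length trend removed, 3 with Xist as a covariate and 3 without the libraries that have Xist, and 3 to 6 without 1 library. In KO adipose tissue they numbered 4 with no filter, 5 with the length trend removed, 5 with Xist as a covariate, and 1 to 11 without 1 library. WT liver had 0 to 3 without 1 library. KO liver had 1 with the length trend removed (Ddb1), 1 without the Xist libraries (Brca2) and 0 to 2 without 1 library. WT muscle had 0 without the Xist libraries and 4 to 18 without 1 library. KO muscle had 5 with TMM factors, 0 with Xist as a covariate, 1 without the Xist libraries and 0 to 6 without 1 library. The number of all genes called moved too, in WT muscle from 1183 without W18S42 to 3838 without W5S5277. Leaving out libraries also lowers the number of samples, and otherwise the cause was not tested. Between tissues the calls ran from 23 to 28 (adipose tissue and liver), 25 to 31 (adipose tissue and muscle) and 23 to 26 (liver and muscle) without 1 library. Libraries of different tissues whose codes end in the same number also had or lacked Xist together, and the labels do not say that they share a mouse. Their consensus correlation was 0.13, and with the number as a replicate block the tissue calls were 29, 29 and 26. Within a tissue no paired analysis was possible because no code number occurs in both groups compared. None of the differences picked by the planned naming rule reversed. Of all called members, 11 between adipose tissue and liver and 3 between adipose tissue and muscle had the opposite sign with reads scaled to equal library totals. Parp1 and Ercc5, named above for this, are among them. Low reads limit Neil3, Exo1 and Chek1, which were not tested in any tissue.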
